A study of Sus scrofa with 33 samples.

Results

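The integrated stress response is described here through 4 genes in failing pig right ventricle: ATF4, PPP1R15A, AARS and FARSA. They were looked up by gene symbol in the platform annotation, which gave 7 probe sets with that single symbol (2 each for ATF4, AARS and FARSA and 1 for PPP1R15A). These are 4 of the 6765 genes and 7 of the 23999 probe sets that could be tested. The genes were chosen from earlier results on these same arrays: ATF4 and PPP1R15A were known from their higher level after banding, and which comparison led to AARS and FARSA is not stated. Their changes from baseline are therefore given as a description with no p-value, and adjusted p-values are printed for them only for the change after 120 min and for differences between the arms.

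Each of 11 pigs (Sus scrofa) gave 3 biopsies of the right ventricular free wall, 33 in all, and every biopsy was hybridised to its own Affymetrix Porcine Genome Array. The shunt arm (6 pigs) had a biopsy at baseline, a biopsy after 120 min of pulmonary banding, which constricts the pulmonary artery to make the right ventricle fail, and a last biopsy after 60 min of banding with a modified Glenn shunt, a connection that carries caval blood past the right ventricle into the pulmonary artery. The control arm (5 pigs) had the same first biopsies and a last one after 60 min of banding without the shunt. Pigs were randomised after failure was established, the labels give no group that went through the same times without banding, and neither strain nor age is stated in the labels. Every pig had been banded by its second biopsy, so time, the earlier biopsy and banding cannot be told apart.

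When a cell lacks amino acids, haem or folding capacity in the endoplasmic reticulum, or detects viral RNA, kinases phosphorylate the initiation factor eIF2. Phosphorylated eIF2 inhibits its own exchange factor, eIF2B, which slows most protein synthesis while the mRNA of ATF4 is translated more. ATF4, a basic leucine zipper transcription factor, then turns on genes for amino acid uptake and synthesis, many cytosolic tRNA synthetases, and PPP1R15A (also called GADD34), the inducible subunit that directs protein phosphatase 1 to eIF2 and so ends the response. AARS and FARSA belong to the tRNA synthetases, which load amino acids onto their tRNAs: AARS is the cytosolic alanyl-tRNA synthetase, and FARSA is the alpha subunit of the cytosolic phenylalanyl-tRNA synthetase, whose partner is FARSB. The response is controlled by translation and phosphorylation to a large part, and the arrays measured mRNA only.

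ATF4 mRNA was higher after 120 min of banding in each of the 11 pigs. In the shunt arm its log2 level had a lowest, median and highest value of 10.28, 10.42 and 10.75 at baseline, 10.79, 10.93 and 11.30 at 120 min, and 10.70, 11.27 and 11.63 at the last biopsy. In the 5 control pigs, in order of pig number, it was 10.54, 10.68, 10.53, 10.40 and 10.37 at baseline, 11.25, 11.05, 10.97, 10.76 and 10.91 at 120 min, and 10.86, 11.28, 10.85, 10.63 and 10.81 at the last biopsy. In both arms every 120 min value lay above every baseline value, while at the last biopsy the lowest pig of each arm lay below the highest baseline pig of its arm. ATF4 was chosen for its higher level after banding, so this separation is a description. The share of all genes that separate in this way was not counted, here or for the genes below. The change at 120 min was 0.51 ± 0.08 on the log2 scale (SE, 11 pigs), or 1.43-fold, and ranged from 0.36 to 0.76 among the pigs. It was 0.54 ± 0.11 in the shunt arm, against 0.48 ± 0.12 in control pigs, and the difference between the arms did not pass the test (0.05 ± 0.16, limma adjusted p = 0.972).

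PPP1R15A was also higher at 120 min in 11 of 11 pigs. Its log2 level in the shunt arm had a lowest, median and highest value of 7.31, 7.39 and 8.40 at baseline, 8.05, 8.45 and 9.32 at 120 min, and 8.18, 8.49 and 9.40 at the last biopsy. The control pigs had 8.15, 8.05, 7.81, 7.51 and 7.77 at baseline, 8.94, 8.16, 8.42, 8.23 and 8.77 at 120 min, and 8.77, 8.81, 8.53, 8.19 and 8.50 at the last biopsy. The groups did not overlap between 120 min and baseline in the control arm, but by a narrow margin (8.16 against 8.15), and in the shunt arm they overlapped, since shunt pig 4 began at 8.40. The change was 0.78 ± 0.11 (SE, 11 pigs), or 1.72-fold, the largest of the 4 genes. It varied more among pigs than that of ATF4, between 0.11 in control pig 2 and 1.24 in shunt pig 3. The arms differed at 120 min by 0.25 ± 0.22, which did not pass the test (limma adjusted p = 0.871).

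The synthetase genes had smaller changes at 120 min than ATF4 and PPP1R15A. AARS was 0.20 ± 0.06 higher over the 11 pigs, or 1.15-fold, and higher in 9 of them. In the shunt arm its log2 level had a lowest, median and highest value of 9.09, 9.21 and 9.42 at baseline, 9.32, 9.56 and 9.73 at 120 min, and 9.47, 9.68 and 10.17 at the last biopsy. The control pigs had 9.54, 9.32, 9.54, 9.29 and 9.42 at baseline, 9.41, 9.38, 9.51, 9.34 and 9.72 at 120 min, and 9.58, 9.54, 9.76, 9.35 and 9.41 at the last biopsy. In the shunt arm AARS was higher at 120 min in 6 of 6 pigs (0.32 ± 0.08), although the groups overlapped, and in the control arm in 3 of 5 pigs (0.05 ± 0.08), where the values overlapped at all 3 biopsies.

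The difference between the arms in the AARS change at 120 min was 0.27 ± 0.11 (95% confidence interval 0.04 to 0.50), and it did not pass after adjustment (limma adjusted p = 0.677). At that time both arms had been treated alike. The baseline level of AARS was lower in the shunt arm by 0.19 ± 0.08 (limma adjusted p = 0.398). Spiked-in controls put the arrays into 3 sets, shunt pigs 1 to 4, shunt pigs 5 and 6, and the control pigs, so no set held both arms, and wherever the arms are compared, arm and array set cannot be told apart. The AARS change was 0.34 in shunt pigs 1 to 4 and 0.28 in shunt pigs 5 and 6.

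FARSA had a change at 120 min that was smaller than its standard error. Its log2 level in the shunt arm had a lowest, median and highest value of 8.07, 8.34 and 8.46 at baseline, 8.12, 8.25 and 8.45 at 120 min, and 8.10, 8.52 and 8.78 at the last biopsy. The control pigs had 8.62, 8.52, 8.25, 8.42 and 8.57 at baseline, 8.62, 8.69, 8.56, 8.33 and 8.71 at 120 min, and 8.53, 8.66, 8.23, 8.46 and 8.48 at the last biopsy. The groups overlapped at every time in both arms. That change was 0.04 ± 0.06 (95% confidence interval -0.07 to 0.15), with 7 of 11 pigs higher. In the shunt arm it was -0.02 ± 0.07, against 0.11 ± 0.08 in control pigs. The difference between the arms at 120 min was -0.12 ± 0.11 and did not pass the test (limma adjusted p = 0.871). FARSA began 0.19 ± 0.09 lower in the shunt arm (limma adjusted p = 0.458).

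**Figure D1:**
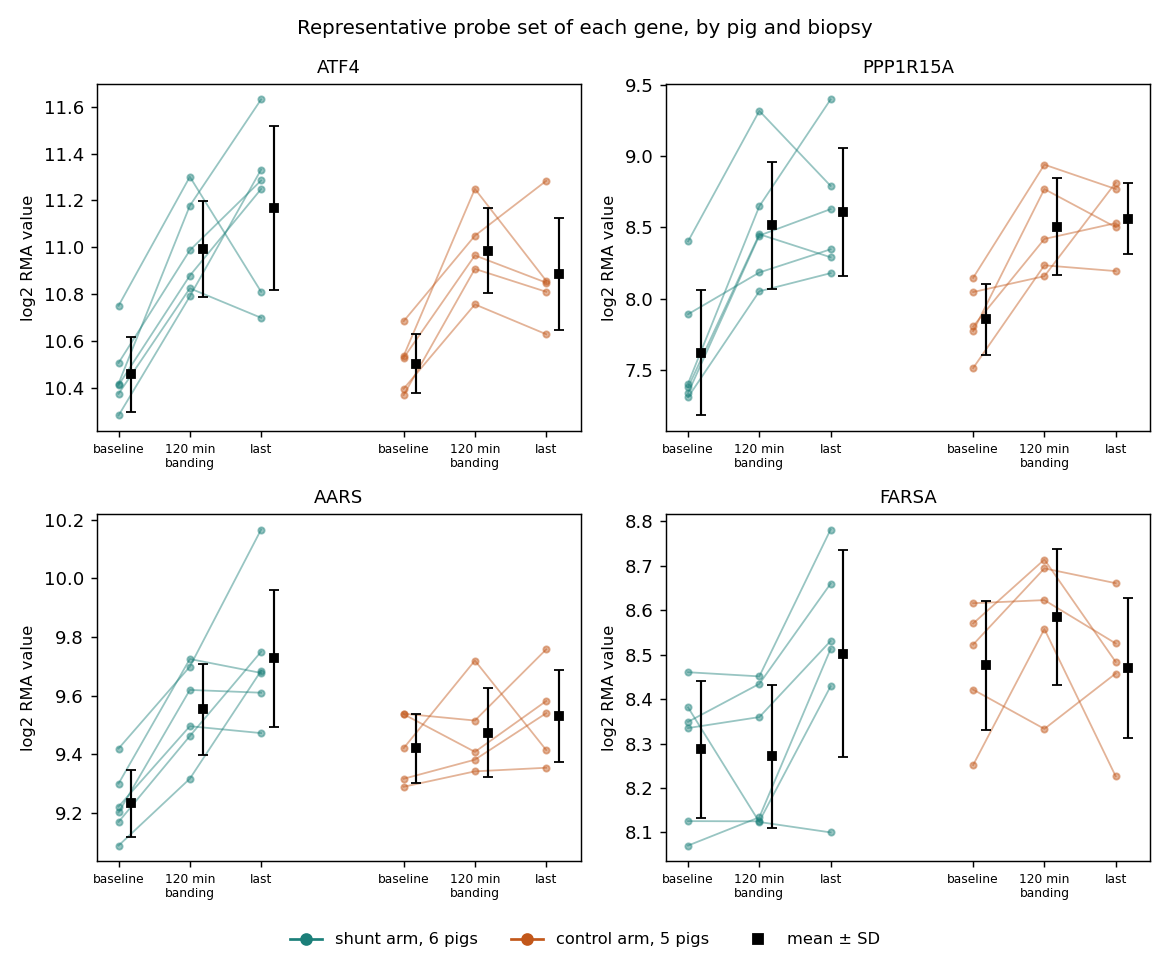
Log2 RMA value (y axes, a scale of its own for each gene) of the representative probe set of ATF4, PPP1R15A, AARS and FARSA at the 3 biopsies (x axes), with a line for each pig, the shunt arm on the left and the control arm on the right of each panel, and black squares for the mean ± SD. ATF4 and PPP1R15A go up from baseline to 120 min in all 11 lines, AARS in 9 and FARSA in 7.

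Among the 6765 genes ordered by their change at 120 min, PPP1R15A was number 151 from the top, ATF4 number 301, AARS number 869 and FARSA number 2453. The median change over all genes was -0.02. Over this comparison 13.1% of genes rose and 20.8% fell at an adjusted p of 0.05.

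After 120 min the 4 genes did not change beyond the test in either arm. In the shunt arm the change from 120 min to the last biopsy was 0.17 ± 0.11 for ATF4, 0.09 ± 0.15 for PPP1R15A, 0.17 ± 0.08 for AARS and 0.23 ± 0.07 for FARSA, with limma adjusted p-values of 0.684, 0.903, 0.506 and 0.374. In the control arm it was -0.10 ± 0.12 for ATF4, 0.06 ± 0.16 for PPP1R15A, 0.06 ± 0.08 for AARS and -0.11 ± 0.08 for FARSA, each with a limma adjusted p of 1. No gene of the 6765 passed limma's test in either arm or between the arms over this time (0% higher and 0% lower). An unadjusted p under 0.05 was found for 662 genes in the shunt arm, 160 in the control arm and 158 between the arms. Where no gene changes, a share of about 0.05 is expected to have such a p. The counts of 160 and 158 of 6765 lie below that share.

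FARSA had the widest gap between the arms in this later change when the brightest probe set of each gene was read; with the mean of a gene's probe sets the gap was 0.23 for FARSA and 0.34 for ATF4, so the order turned. It was higher at the last biopsy than at 120 min in 5 of 6 shunt pigs, by up to 0.38, and lower in 4 of 5 control pigs, by as much as -0.33. The difference between the arms was 0.34 ± 0.11 (95% confidence interval 0.12 to 0.57), with an unadjusted p of 0.00474 and a limma adjusted p of 1. In that order FARSA was number 112 of the 6765 genes from the top. ATF4 had a gap of 0.27 ± 0.16, with 4 of 6 shunt pigs higher and 4 of 5 control pigs lower, AARS one of 0.12 ± 0.11 and PPP1R15A one of 0.03 ± 0.22, each with a limma adjusted p of 1. For FARSA the difference between the arms at 120 min, before they were treated differently, went the other way (-0.12 ± 0.11). The 120 min arrays are part of both FARSA differences.

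The later changes differed among the pigs of an arm. In shunt pig 4 ATF4 changed by -0.49 and PPP1R15A by -0.53 on the log2 scale between 120 min and the last biopsy, the lowest of the 6 changes in the shunt arm for both genes, while the lowest last level of ATF4 in that arm was in shunt pig 5 (10.70). Shunt pig 3 had the highest last level of ATF4, PPP1R15A and AARS. Control pig 2 had the smallest PPP1R15A change at 120 min (0.11) and the largest later one in the control arm (0.66).

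Over the whole course ATF4 and PPP1R15A were higher at the last biopsy than at baseline in all 6 shunt pigs and all 5 control pigs. For ATF4 the change was 0.71 ± 0.11, or 1.64-fold, in shunt pigs, against 0.38 ± 0.12, or 1.30-fold, in control pigs. For PPP1R15A it was 0.98 ± 0.15, or 1.98-fold, in the shunt arm and 0.70 ± 0.16, or 1.63-fold, in the control arm. The spread among shunt pigs was wide for PPP1R15A (0.39 to 1.99) and narrow among control pigs (0.62 to 0.77).

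AARS was higher over the whole course by 0.49 ± 0.08, or 1.41-fold, in the shunt arm, in 6 of 6 pigs. In the brighter probe set its last values did not overlap with its baseline values there. The share of all genes that separate in this way was not counted. In the control arm AARS was higher by 0.11 ± 0.08, in 4 of 5 pigs, and the values overlapped. FARSA was higher by 0.22 ± 0.07 in the shunt arm, in 5 of 6 pigs, and differed by -0.01 ± 0.08 in the control arm. The differences between the arms over the course were 0.33 ± 0.16 for ATF4, 0.28 ± 0.22 for PPP1R15A, 0.38 ± 0.11 for AARS and 0.22 ± 0.11 for FARSA, with limma adjusted p-values of 0.433, 0.671, 0.177 and 0.43. Over all genes 1 passed that test (0.0148% higher and 0% lower), and 999 had an unadjusted p under 0.05. For AARS the 95% confidence interval of the difference ran from 0.15 to 0.62, and the difference at 120 min, before the arms were treated differently, was 0.27.

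**Figure D2:**
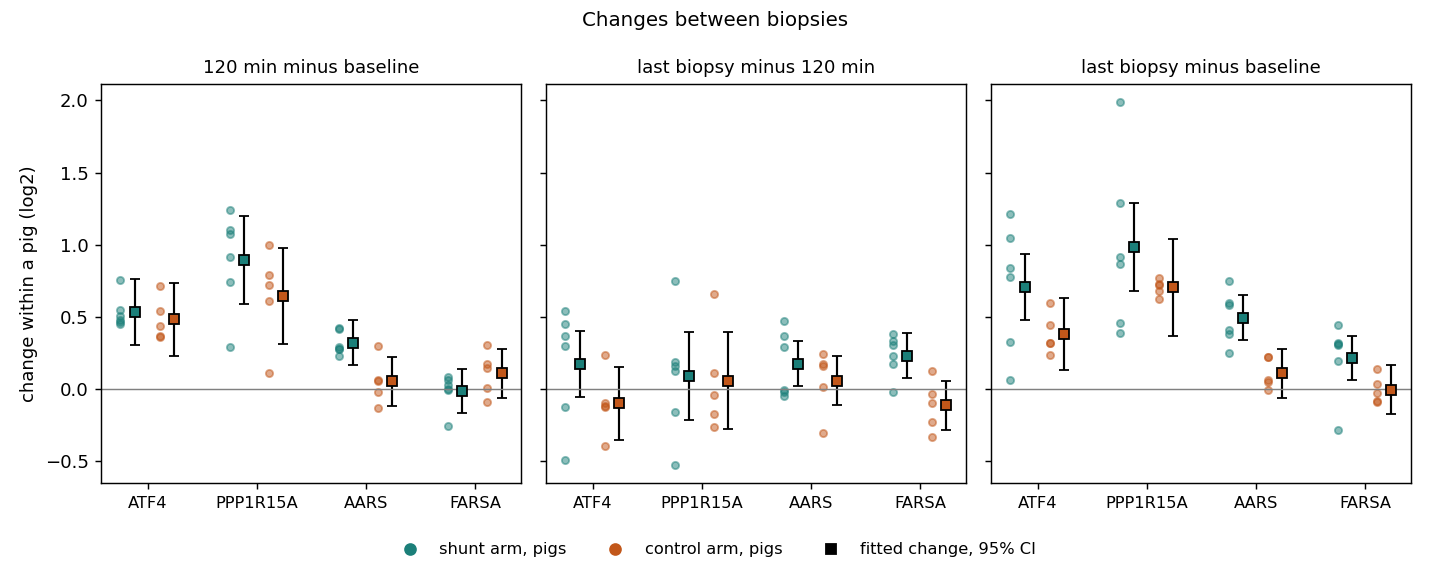
Change in log2 value within a pig (y axis) between the biopsies named above each panel, for ATF4, PPP1R15A, AARS and FARSA (x axis), with shunt pigs as points on the left of each pair and control pigs on the right, and squares for the fitted change with its 95% confidence interval. The AARS points of the arms, from the brighter probe set, do not overlap over the whole course, by a narrow margin (lowest shunt pig 0.25, highest control pig 0.22). The share of all genes whose arms separate in this way was not counted. The fitted AARS difference between the arms was 0.27 at 120 min, before the arms were treated differently, and 0.38 over the whole course. In the dimmer AARS set, not drawn here, the whole-course points of the arms overlap (lowest shunt pig 0.191, highest control pig 0.196). The PPP1R15A points of the arms overlap in every panel.

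The remaining probe sets gave a partial check, because they are dimmer and may bind other parts of a transcript. For ATF4 the correlation between the dimmer and the brighter set over the 33 arrays, after removal of each pig's mean, was r = 0.815, as a description. The dimmer set was higher at 120 min by 0.44 ± 0.14, at log2 levels between 3.15 and 5.27, and higher in 9 of 11 pigs, where the brighter set was higher in 11. The exceptions were shunt pig 4 (-0.19 at 120 min and -0.55 over the course) and control pig 5 (-0.03 and -0.25). In the dimmer ATF4 set the 120 min and baseline values overlapped in both arms. Shunt pig 4 began at 4.50, above all 120 min values of its arm (3.92 to 4.32). In control pigs the highest baseline value was 3.74 and the lowest 120 min value 3.67. The dimmer AARS set correlated with the brighter one at r = 0.653 and had a whole-course change of 0.34 ± 0.09 in shunt pigs, against 0.06 ± 0.10 in control pigs. Its lowest last value in the shunt arm equalled its highest baseline value there (5.56). Its whole-course changes overlapped between the arms (lowest shunt pig 0.191, highest control pig 0.196). Within the control arm the AARS sets differed pig by pig: at 120 min control pig 1 had 0.34 in the dimmer set and -0.13 in the brighter one, and control pig 4 had -0.29 and 0.05. For FARSA the correlation was 0.321, and the dimmer set differed by -0.01 ± 0.10 between 120 min and the last biopsy in the shunt arm, where the brighter one differed by 0.23 ± 0.07. With the mean of the FARSA probe sets that later change was 0.11. The later value of FARSA in the shunt arm thus differed between its probe sets, while the fitted changes of ATF4 and AARS at 120 min and over the course were above 0 in both of theirs.

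**Figure D3:**
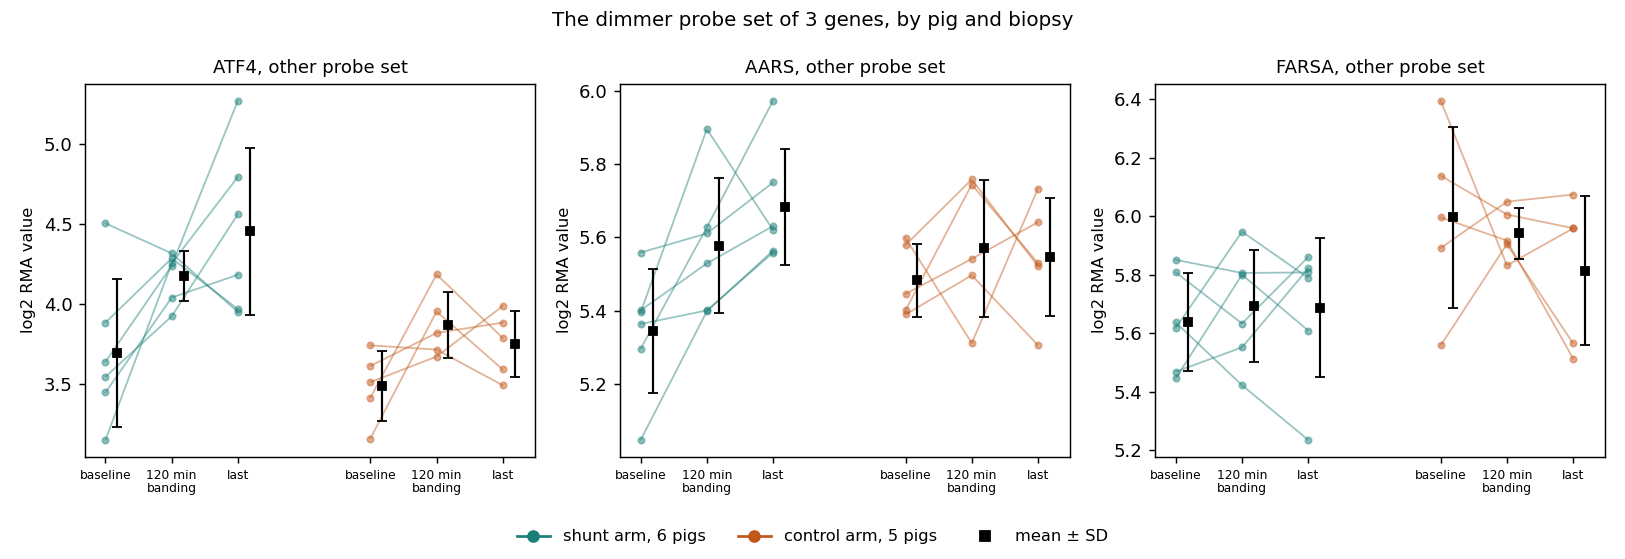
Log2 RMA value (y axes) of the dimmer probe set of ATF4, AARS and FARSA at the 3 biopsies (x axes), drawn as in the plot of the representative sets, with the shunt arm on the left and the control arm on the right. The ATF4 set goes up from baseline to 120 min in 9 of 11 lines and the AARS set in 10, and the FARSA set shows no upward step in the shunt arm after 120 min (-0.01 ± 0.10).

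The genes around these 4 were taken from lists of the pathway. Only those that are not among the 4 are counted by the test, unless AARS and FARSA are named as counted. The counts of the refits in the last section also include the 4 genes where a list holds them. Since the lists too were drawn up with earlier results of these arrays known, their counts and p-values are no independent evidence of a direction. The counts at 120 min are set against all genes, of which 13.1% rose and 20.8% fell. Of the stress-induced targets of ATF4, 6 were measured besides ATF4 and PPP1R15A themselves, and at 120 min 4 of them rose, 1 fell and 1 did not pass. The other listed targets, among them TRIB3, CHAC1, SESN2, DDIT4 and GDF15, had no probe set with that single symbol. The count and the median below therefore rest on part of the list. ATF3, a transcription factor that is switched on early by many stresses, rose by 3.45 ± 0.41, or 10.9-fold (limma adjusted p = 9.12e-07). CEBPB and CEBPG, leucine zipper partners of ATF4, rose by 0.75 ± 0.13 and 0.75 ± 0.09. DDIT3 (CHOP), which promotes cell death under lasting stress, rose by 0.62 ± 0.20 (limma adjusted p = 0.0208). VLDLR, a lipoprotein receptor, fell by 0.30 ± 0.06 on the log2 scale, and ATF5 had a change of 0.11 ± 0.06. The median over the list was 0.68, against -0.02 over all genes.

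Of 18 measured genes for amino acid uptake and synthesis under ATF4, 6 rose and 3 fell at 120 min, and their median was 0.09. The carriers that rose were SLC7A1, a carrier of cationic amino acids, by 0.93 ± 0.14, SLC1A5, a glutamine carrier, by 0.37 ± 0.08, SLC1A4 by 0.26 ± 0.06 and SLC38A1 by 0.25 ± 0.08. CTH, which makes cysteine, rose by 0.64 ± 0.14, and BCAT1, a branched-chain aminotransferase, rose by 0.20 ± 0.06. The genes that fell were PSPH, the last enzyme of serine synthesis, with a change of -0.71 ± 0.10, ASNS (asparagine synthetase), with -0.25 ± 0.09, and GOT1, an aspartate aminotransferase, with -0.22 ± 0.06. PHGDH and PSAT1, which act before PSPH, had changes of 0.13 ± 0.07 and -0.0039 ± 0.12 and did not pass.

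Of the eIF2 machinery, 18 genes besides PPP1R15A were measured, of which 3 rose and 7 fell at 120 min; the share that rose was near that of all genes. PPP1R15B, the constitutive partner of PPP1R15A in directing the phosphatase, rose by 0.51 ± 0.08 (limma adjusted p = 3.69e-05). DNAJC3, an inhibitor of the eIF2 kinases, rose by 0.24 ± 0.06, and EIF2S1, the subunit that is phosphorylated, rose by 0.20 ± 0.07. PPP1CC, a catalytic subunit of protein phosphatase 1, changed by -0.31 ± 0.05, and the eIF2B subunit genes EIF2B1, EIF2B2 and EIF2B4 changed by -0.29 ± 0.06, -0.17 ± 0.05 and -0.19 ± 0.06. OMA1, the mitochondrial protease that relays mitochondrial stress to this pathway, changed by -0.48 ± 0.10, NCK1 by -0.34 ± 0.06 and IMPACT, an inhibitor of the kinase GCN2, by -0.24 ± 0.05. EIF2AK2 (PKR) was the only measured eIF2 kinase (0.08 ± 0.14, not passing).

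**Figure D4:**
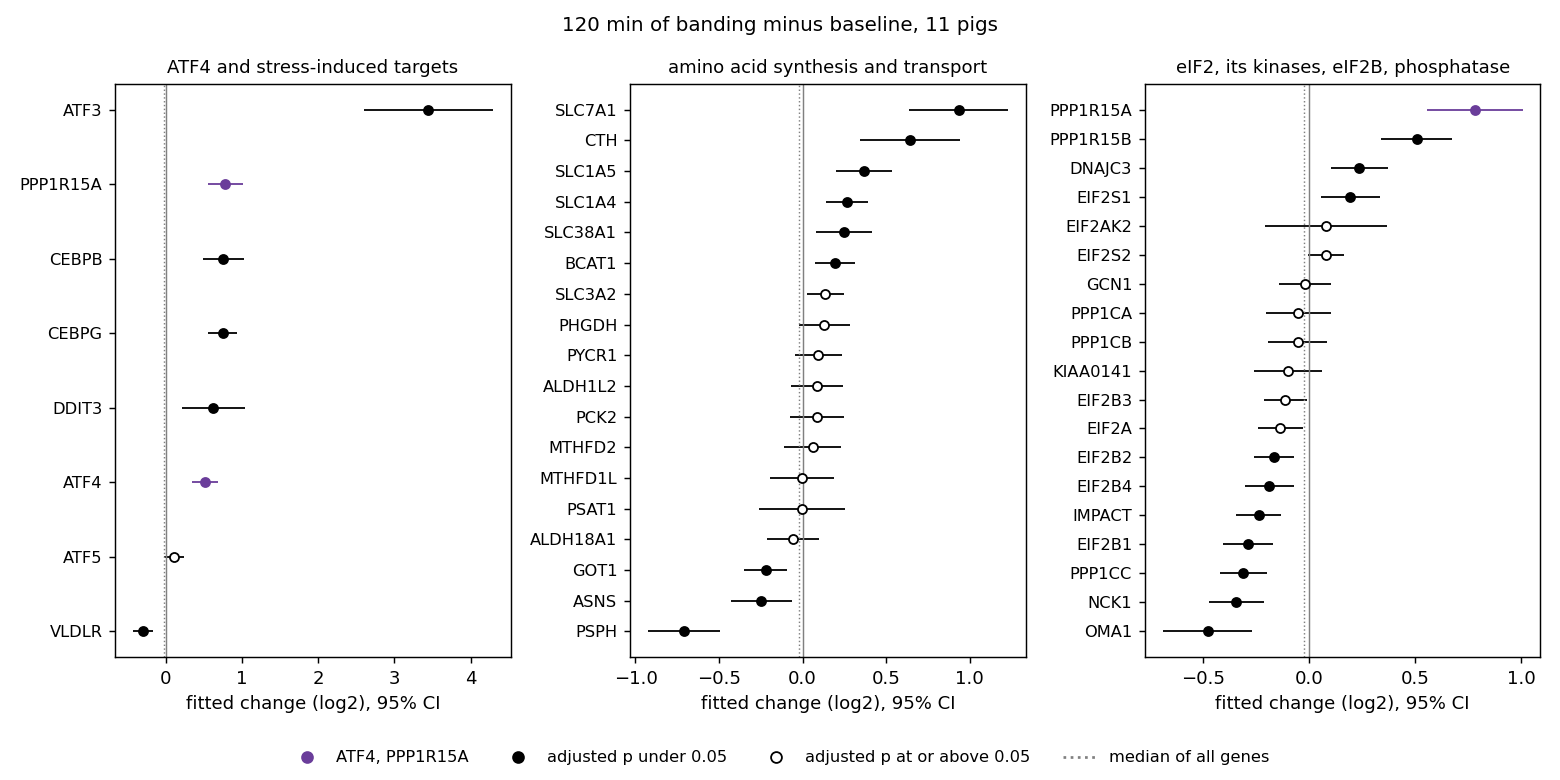
Fitted change at 120 min from baseline over 11 pigs on the log2 scale with its 95% confidence interval (x axes), for the measured genes (y axes) of 3 lists, with filled points for an adjusted p under 0.05, open points for the others, and ATF4 and PPP1R15A in purple. ATF3 lies furthest to the right at 3.45, and PSPH (-0.71) and OMA1 (-0.48) lie furthest to the left in their panels.

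Genes of the ATF6 and IRE1 branches of the unfolded protein response, which respond to misfolded protein in the endoplasmic reticulum, mostly did not pass at 120 min. Of 19 measured genes 1 rose (DNAJC3, which the eIF2 list also holds) and 1 fell (CANX, -0.16 ± 0.05), with a median of 0.01. HSPA5 (BiP), the main chaperone of that response, had a change of 0.02 ± 0.09, and XBP1, a transcription factor of the IRE1 branch, one of 0.23 ± 0.10 that did not pass. The list's count of risen genes came to 3 without shunt pig 4 and to 2 without shunt pig 2, control pig 3 or control pig 4. Over the whole course 5 of the 19 rose and 1 fell in the shunt arm, where 16.7% of all genes rose and 23.6% fell. Those that rose were DNAJC3 (0.59 ± 0.09), SEC61B, a subunit of the translocon (0.58 ± 0.11), DNAJB9 (0.55 ± 0.18), XBP1 (0.37 ± 0.13) and HYOU1 (0.21 ± 0.08), and CANX changed by -0.29 ± 0.07. The count that rose was 2 without shunt pig 1 and 3 without shunt pig 2, 3 or 6. In the control arm DNAJB9 alone rose (0.68 ± 0.20) and was not called without control pig 1, 3 or 5, and none fell, with 1 lower at an unadjusted p under 0.05 in limma's test. None of the 19 passed limma's test of the difference between the arms over the course, and 1 had an unadjusted p under 0.05. At baseline 18 of the 19 genes were higher in the shunt arm, with a median difference of 0.24. None passed limma's test, and 8 had an unadjusted p under 0.05. Over all 6765 genes the median baseline difference was -0.008, and 844 had an unadjusted p under 0.05 in limma's test. The share of all genes that were higher in the shunt arm at baseline was not counted. Arm and array set cannot be told apart there either.

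The list of cytosolic synthetases also holds scaffold proteins and a tRNA exporter. Of its 17 measured genes besides AARS and FARSA, 2 rose and 2 fell at 120 min, no larger a share in either direction than among all genes. EEF1E1 (AIMP3), a scaffold protein of the multi-synthetase complex that also has a part in the DNA damage response, rose by 0.92 ± 0.15, and NARS, the asparaginyl-tRNA synthetase, rose by 0.22 ± 0.07. KARS, the lysyl-tRNA synthetase, changed by -0.15 ± 0.04 and XPOT, the exporter of tRNA from the nucleus, by -0.19 ± 0.05. FARSB, the partner of FARSA, had a change of -0.04 ± 0.04 that did not pass.

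Over the whole course in the shunt arm, 6 of these 17 genes rose and 1 fell, where 16.7% of all genes rose and 23.6% fell. EEF1E1 rose by 1.59 ± 0.21, or 3.00-fold, NARS by 0.63 ± 0.10, WARS (tryptophanyl) by 0.44 ± 0.08, LARS (leucyl) by 0.31 ± 0.08, AIMP2, another scaffold protein, by 0.26 ± 0.08 and GARS (glycyl) by 0.20 ± 0.06. KARS changed by -0.20 ± 0.05. In the control arm EEF1E1 alone rose (0.81 ± 0.23) and none fell, where 4.39% of all genes rose and 5.59% fell, and 2 had an unadjusted p under 0.05 with a lower level. None of the 19 genes, AARS and FARSA included, passed limma's test of the difference between the arms over the course, and 4 had an unadjusted p under 0.05, each higher in the shunt arm: WARS (0.47 ± 0.12, adjusted p = 0.14), AARS, NARS (0.43 ± 0.15, adjusted p = 0.24) and EEF1E1 (0.78 ± 0.31, adjusted p = 0.303). With AARS and FARSA counted, 8 of 19 were called higher in the shunt arm, and 5 without shunt pig 2. EEF1E1 in the control arm was no longer called without control pig 1 or without control pig 2.

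**Figure D5:**
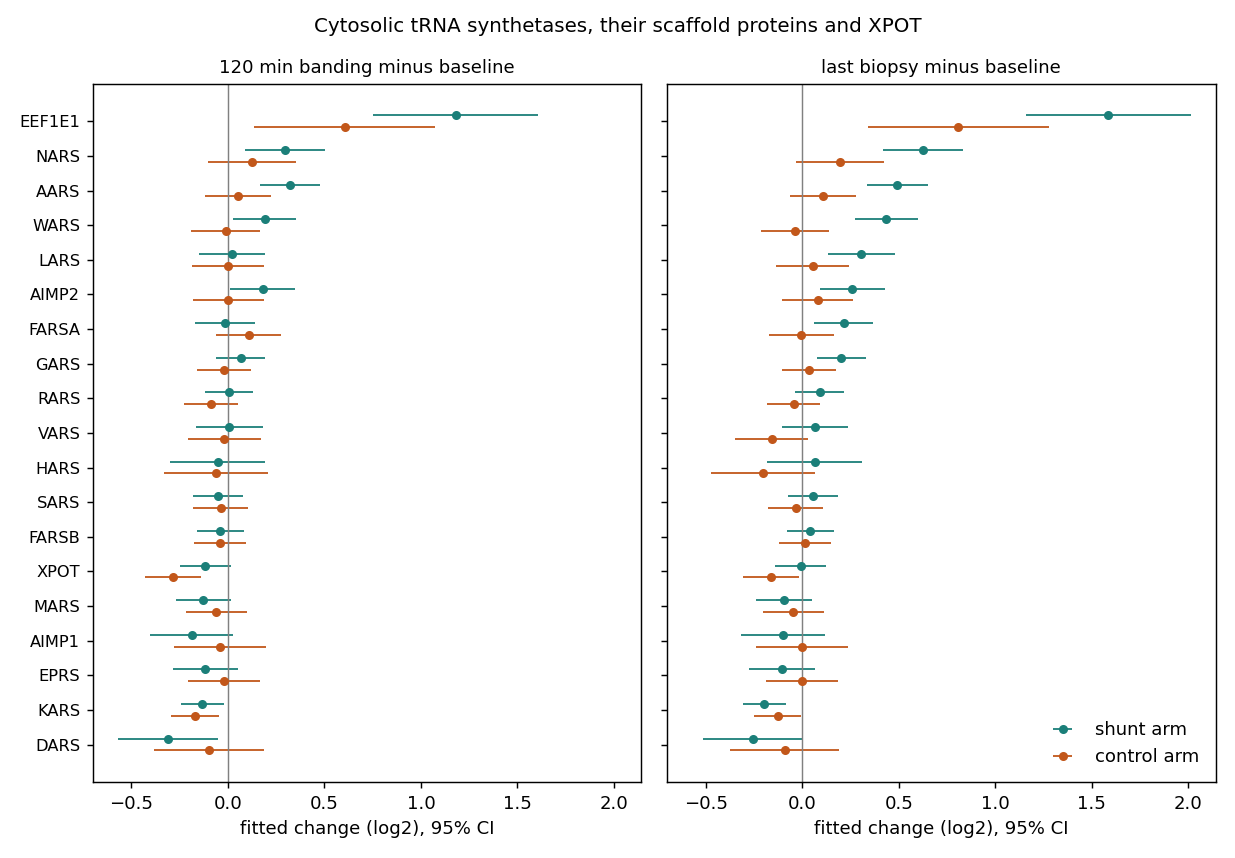
Fitted change on the log2 scale with its 95% confidence interval (x axes) at 120 min and over the whole course, for 19 cytosolic synthetases, scaffold proteins and XPOT (y axis), with the shunt arm above the control arm for each gene. EEF1E1 lies furthest to the right in both arms (1.59 in shunt pigs and 0.81 in control pigs over the course), and FARSB and SARS lie close to 0.

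The mitochondrial synthetases load tRNAs inside the mitochondrion, and their list also holds GATB, GATC and QRSL1, subunits of the amidotransferase that completes mitochondrial glutaminyl-tRNA. Of 9 measured genes 2 fell at 120 min, near the share of all genes: the isoleucyl-tRNA synthetase gene IARS2 (-0.24 ± 0.07) and GATC (-0.23 ± 0.07). None rose, with 1 at an unadjusted p under 0.05 and a higher level in limma's test. The list's median was -0.15, and 4 fell without shunt pig 2 and 1 without shunt pig 3. Over the course 4 fell (IARS2, GATB, QRSL1 and FARS2) and 1 (WARS2, 0.24 ± 0.09) rose in the shunt arm, where 23.6% of all genes fell and 16.7% rose; 1 fell without shunt pig 1 or 2 and 2 without shunt pig 6, and WARS2 was not called without shunt pig 1, 4 or 6 or control pig 1. In the control arm none passed limma's test and none had an unadjusted p under 0.05.

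Among the carriers and enzymes for amino acids, SLC7A1 rose over the whole course by 1.59 ± 0.19 in the shunt arm and by 0.80 ± 0.21 in the control arm. CTH rose by 0.52 ± 0.20 in the shunt arm and by 0.94 ± 0.21 in the control arm, and SLC1A4 by 0.41 ± 0.08 in the shunt arm and by 0.34 ± 0.09 in the control arm. Of the 18 genes of the amino acid list 8 rose and 3 fell in the shunt arm, where 16.7% of all genes rose and 23.6% fell. In the control arm, where 4.39% of all genes rose and 5.59% fell, 3 rose and none fell, and 1 had a lower level at an unadjusted p under 0.05 in limma's test. Without control pig 1 none of these rose in the control arm, and without control pig 2 only 1 did. ATF3 was higher at the last biopsy than at baseline, by 2.72 ± 0.55 in shunt pigs and 2.85 ± 0.61 in control pigs. Of the other stress-induced targets, CEBPB and CEBPG also rose in both arms, and ATF5 passed in neither. DDIT3 passed in neither arm (0.45 ± 0.27 in shunt pigs, 0.64 ± 0.30 in control pigs). VLDLR changed by -0.52 ± 0.09 in the shunt arm and did not pass in the control arm. With ATF4 and PPP1R15A counted, 5 genes of that list were called higher in the control arm, and 2 without control pig 2. The shunt arm had 6 pigs and the control arm 5, and the number of calls in an arm is no test of a difference between arms.

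The 4 genes were also set beside all others by the likeness of their levels over the 33 arrays after removal of each pig's mean, as a description in which the arrays of a group share their treatment and time. The correlation of ATF4 with PPP1R15A was r = 0.897, and that of AARS was 0.808 with ATF4 and 0.809 with PPP1R15A. FARSA was weakly like the rest, at 0.486 with AARS, 0.445 with ATF4 and 0.320 with PPP1R15A. Many other genes were more alike: of 6764 genes, PPP1R15A was number 112 in likeness to ATF4, and ATF4 number 27 to PPP1R15A. AARS was number 394 in likeness to ATF4 and 206 to PPP1R15A. The higher level after banding for which ATF4 and PPP1R15A were chosen is part of these values. The genes most like ATF4 were ODC1, the first enzyme of polyamine synthesis (0.958), MAT2A, which makes S-adenosylmethionine (0.954), and LMNA, which encodes the lamins A and C (0.948), and the least like was SNAPIN (-0.968). For PPP1R15A they were LONRF3 (0.940), NRAP, a protein of the cardiac intercalated disc (0.929), and YBX3 (0.924), with INTS10 as the least like (-0.933). For AARS they were UTP14A, a ribosome assembly factor (0.916), NME1, a nucleoside diphosphate kinase (0.906), and HSPA4, a chaperone (0.905), and for FARSA AMDHD2 (0.853) and PSMD2, a proteasome subunit (0.805).

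The tissue matched its label: the mean of 12 cardiomyocyte markers lay between 13.6 and 14.0 in all groups. Some markers of several other cell types passed the test over the course in the shunt arm, where 16.7% of all genes rose and 23.6% fell. In the control arm 4.39% of all genes rose and 5.59% fell. For neutrophils and monocytes the mean level of 7 such markers had medians of 5.12, 5.75 and 6.08 at the shunt arm's 3 biopsies and of 5.13, 5.12 and 5.43 at those of the control arm. Of these, 5 rose over the course in the shunt arm (S100A9 by 3.48 ± 0.39), against 1 in the control arm. CD14 and ITGAM were the markers of this list that did not pass in either arm. None of the 7 passed limma's test of the difference between the arms over the course, and 4 had an unadjusted p under 0.05. For S100A9 that difference was 2.10 ± 0.58. At 120 min, before the arms were treated differently, it was 2.28 ± 0.58 (limma adjusted p = 0.381). Of 5 smooth muscle and pericyte markers 3 rose in the shunt arm, CNN1 by 1.74 ± 0.17, TAGLN by 0.98 ± 0.21 and ACTA2 by 0.56 ± 0.20, against CNN1 alone in the control arm (0.88 ± 0.18). The difference between the arms for CNN1 was 0.86 ± 0.25 over the course (limma adjusted p = 0.169). At 120 min, before the arms were treated differently, it was 0.77 ± 0.25 (limma adjusted p = 0.515). Of 3 macrophage markers 2 rose in the shunt arm, CD163 by 1.12 ± 0.14 and MRC1 by 0.36 ± 0.11, against CD163 in the control arm (0.68 ± 0.15). Among 8 endothelial markers CLDN5 rose by 1.18 ± 0.23 and TEK changed by -0.59 ± 0.11 in the shunt arm, while in the control arm TEK alone passed (-0.37 ± 0.12). Among 5 fibroblast markers COL3A1 rose by 0.68 ± 0.14 and DCN changed by -0.27 ± 0.10 in the shunt arm, and of 5 lymphocyte markers CD8A alone passed, in the control arm (-0.67 ± 0.16). Of the 12 cardiomyocyte markers 3 fell in the shunt arm (PLN, CKM and TNNT2), near the share of all genes there. All 12 had a change below 0 in that arm, where the median change over all genes was also below 0 (-0.018). The share of all genes with a change below 0 was not counted. In the control arm none of the 12 passed limma's test and 1 was lower at an unadjusted p under 0.05. The part of these cell types in the values of AARS and of the synthetases was not tested. In a biopsy, fewer cells of a type and less RNA per cell cannot be told apart. GAPDH read near its 3′ end exceeded GAPDH read near its 5′ end, a measure of RNA integrity, by medians of 0.69, 0.67 and 0.58 on the log2 scale at the shunt arm's biopsies and of 0.78, 1.00 and 1.02 at the control arm's, and its part in the results was not tested either.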

How the data were processed

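The deposited values are log2 RMA expression values, made by the authors from 33 arrays, per the submitters' processing notes; the RMA version is not given in the sources used here. They were used as deposited. The 124 control probe sets of 24123 were left out. Of a gene's probe sets annotated with that symbol alone, the one brightest on average over all arrays was read. In R 4.3.3 with limma 3.58.1, 1 model had a term for each pig and, in each arm, for each later biopsy (18 residual degrees of freedom). P-values are two-sided, adjusted by Benjamini-Hochberg over 23999 probe sets, with a threshold of 0.05. Pigs pair the biopsies per the labels; deviations from the group means had a median r of 0.395 within a pig and -0.0524 between pigs. The number of arrays limits the precision, and intervals are at 95%. The code was tested on simulated data.

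The members and gene lists were chosen with earlier results of these data known. Non-members were named where they passed the test or hold a set role in the pathway, and the genes most like a member by rank of correlation. Alternatives were array centring, quantile normalisation, no pig term, pig as a random term, a filter on dim probe sets, a trend, array weights, the mean of probe sets, each pig left out and each array set alone. No background correction was repeated, because scanner files were not used here. Promoter and protein sequences were not used here.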

Additional observations from a re-analysis of the deposited data

Results flagged for a closer look

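Levels of the 4 genes and their changes within pigs were searched for a pig that stood apart from the rest of its arm. Over 48 groups of values, levels and changes together, 3 such values came up, all of them changes, where chance gives about 1 in 20 groups. The ATF4 change at 120 min in shunt pig 3 was 0.76, above the other shunt pigs. The FARSA change in shunt pig 1 was -0.26 at 120 min and -0.28 over the whole course, below the other shunt pigs; both share that pig's baseline array.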

How the results depend on the processing

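The changes of the 4 genes kept their sign in 708 of 720 refits, and of the 468 refits of a change with an adjusted p, all 468 stayed on the same side of the threshold. The 12 exceptions were refits of PPP1R15A, FARSA and ATF4 changes whose value in the main fit lay within 0.09 of 0. The FARSA change at 120 min was -0.043 in shunt pigs 1 to 4 alone. Its course change in the control arm was 0.0061 with centred arrays, 0.020 with quantile normalisation, and ran from -0.041 to 0.016 when 1 pig was left out. Among refits that left out 1 pig, the later change of PPP1R15A ran from -0.042 to 0.21 in the shunt arm, from -0.092 to 0.14 in the control arm, and from -0.10 to 0.18 for the difference between the arms. The baseline difference of ATF4 ran from -0.10 to 3.4e-05 and was 0.081 with the mean of its probe sets; the cause was not tested. For AARS the lowest adjusted p of the difference between the arms over the course was 0.0516 under any setting.

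List counts in these refits include those of the 4 genes that a list holds. These are ATF4 and PPP1R15A for the stress-induced targets and PPP1R15A for the eIF2 machinery. For the cytosolic synthetases they are AARS and FARSA. Such counts are not like those given above without the 4 genes. Without the pig term (no replicate block) the control arm had 826 called probe sets over the course, against 2110, and the difference between the arms had 0, against 1. In the same fit 1 cytosolic and 1 mitochondrial synthetase gene and 0 unfolded protein response genes fell at 120 min, and 5 cytosolic synthetase genes rose and 0 fell over the course in the shunt arm. Pig as a random term called 1 probe set in the later shunt change, against 0. Array quality weights called 46 there, 3440 in the control course and 189 for the course difference, with 3 unfolded protein response genes higher and 2 lower at 120 min. Centring the arrays, and likewise the trend, left 1 called probe set at baseline between the arms, against 5. Quantile normalisation gave 2 higher unfolded protein response genes and 1 higher mitochondrial synthetase gene at 120 min. The mean of the probe sets gave 0 lower stress-induced targets and 2 higher and 0 lower unfolded protein response genes. The cause of these moves was not tested.

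Leaving out 1 pig gave 0 to 11 called probe sets for the later shunt change, 849 to 2400 for the control course, 0 to 274 for the course difference and 0 to 2 at baseline. At 120 min it gave 0 to 1 higher and 1 to 4 lower mitochondrial synthetase genes, and 1 to 3 higher and 1 to 2 lower unfolded protein response genes. For the cytosolic synthetase genes over the course it gave 5 to 8 higher and 1 to 2 lower in the shunt arm and 0 to 1 higher in the control arm.

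Each array set alone has fewer pigs and called fewer genes at 120 min. In shunt pigs 1 to 4, 2369 probe sets were called at 120 min and 4804 over the course. At 120 min 2 genes of the eIF2 machinery were higher and 2 lower, 2 stress-induced targets were higher and 0 lower, 2 amino acid genes were higher and 1 lower, 1 cytosolic synthetase gene was higher and 0 lower, and 0 mitochondrial synthetase and 0 unfolded protein response genes were lower; over the course 4 cytosolic genes were higher and 0 lower. In shunt pigs 5 and 6, 454 probe sets were called at 120 min and 1172 over the course. At 120 min 1 eIF2 gene, 3 stress-induced targets and 1 amino acid gene were higher, and 0 of each lower, with 0 in both directions for cytosolic synthetases (over the course too) and unfolded protein response genes, and 0 lower mitochondrial ones. In the control pigs 1790 probe sets were called at 120 min, with 2 eIF2 genes higher and 1 lower, 0 stress-induced targets lower, 2 amino acid genes higher and 1 lower, 0 cytosolic synthetases higher and 1 lower, 0 mitochondrial ones lower and 0 unfolded protein response genes in both directions.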
